A study of Mus musculus with 12 samples.

Results

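All mouse kidneys given L.J. were compared with all kidneys not given it, whether or not the animals had also received busulfan. The 6 libraries with L.J. were chosen by their treatment label, as were the 6 without, so the comparison used all 12 libraries of the study. No measured value entered the sorting of libraries, but the comparison was chosen with earlier results of these data known. Each side held 3 libraries with busulfan and 3 without, and busulfan entered the fit as a covariate.

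The 4 groups of 3 libraries were kidneys from animals given busulfan plus 10 mg/kg L.J., 10 mg/kg L.J. alone, busulfan alone, and controls. All were whole kidneys of ICR mice, an outbred stock, aged 8 weeks. The labels give no busulfan dose, sex, route, time of sampling or number of animals per library. L.J. is not spelled out, and the submitters' design statement names FMT in its place. Nothing says that each library is a separate animal, so every p-value reflects only how these libraries vary, which may be technical.

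Busulfan is an alkylating drug used to deplete bone marrow before transplantation. The kidney filters blood plasma in the glomerulus and recovers most filtered solutes and small proteins in the proximal tubule. Albumin, the apolipoproteins, fibrinogen and the major urinary proteins (Mup) are secreted mainly by hepatocytes, and Mup proteins pass from blood into mouse urine, where they carry pheromones. Their messenger RNA is a small share of a kidney library.

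Expression was given as FPKM, fragments per length of transcript and per mapped total, for 21004 genes. FPKM columns summed to between 481937 and 541844 and keep no absolute depth, but the steps between low values of 155 genes placed the relative depth of the libraries between 0.940 and 1.057. Kidney markers were abundant in every library. The proximal tubule list summed to 9289.6 to 10981 FPKM with L.J. and 8192 to 10389.5 FPKM without. Busulfan libraries 1 and 2 stood apart at 40.4 and 47.3 on the first principal component (41.8% of the variance), against -16.9 to -1.85 for the other 10, and busulfan library 3 had the strongest relation of expression to transcript length (Spearman -0.511, against -0.066 to 0.301 elsewhere). Where leaving out busulfan libraries 1 and 2 moved the median of a list described here by over 1.5 times, both values are given.

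A gene was called when its Benjamini-Hochberg adjusted p in limma was under 0.05, and log2 differences are on the log2(FPKM + 1) scale, which understates changes of low genes. Of 12281 genes with at least 1 FPKM in at least 3 libraries, 23 fell in L.J. kidneys (0.187%) and 0 rose (0%). At an unadjusted p under 0.05, 1163 genes were lower (9.47%) and 421 higher (3.43%). The median difference over all tested genes was -0.06, and -0.01 without busulfan libraries 1 and 2. On the L.J. libraries alone, 13 of the 23 genes would have passed the filter on FPKM. The others were tested because of the side where they were high. Of the 23 genes, 21 are transcripts of hepatocytes. The liver and urinary protein list held 17 of them (Alb, Ahsg, Apoa1, Apoa2, Fabp1, Fgb, Fgg, Hpx, Mup1, Mup2, Mup3, Mup7, Mup8, Mup19, Mup20, Serpina3k and Ttr). That list was chosen with earlier results of these data known. A further hepatocyte list, assembled after these values were seen, held 4 (Ambp, Kng1, Mup15 and Serpina1c). Serpine2 and Pnrc1 were in neither. The count depended on single libraries. It was 13 without busulfan plus L.J. library 3, 11 without L.J. library 1, 13 without L.J. library 2 and 13 without L.J. library 3, and it was 14 after quantile normalization. The count within the list was 11, 9 and 11 without the first 3 of these libraries in turn. The 10 genes called whichever library was left out were Alb, Ambp, Apoa1, Fabp1, Fgb, Mup2, Mup3, Mup8, Mup19 and Serpina3k. Calls held least often for Kng1 and Pnrc1 (1 of 12 fits that each left out a library), Hpx and Mup7 (2) and Serpine2 (3). In bulk tissue, fewer cells of a type and less RNA per cell cannot be told apart.

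Promoters of Alb, Fabp1, Mup2 and Mup19 are shown as examples of plasma protein, lipid carrier and urinary protein genes that fell. Of the 23 genes, 17 had an entry in the RefSeq promoter table (GRCm38.p6, 250 bases before to 50 after the annotated start), with 18 promoters between them. Letters in capitals mark GTTAAT or its reverse complement ATTAAC, the opening of the consensus of HNF1, a transcription factor of hepatocytes and of renal tubules, and TATAA or TTATA, the TATA box letters. The stretches are Alb at chr5:90460620-90460919 (plus strand), Fabp1 at chr6:71199629-71199928 (plus strand), Mup2 at chr4:60139807-60140106 (minus strand) and Mup19 at chr4:61782175-61782474 (minus strand), each printed 5′ to 3′ on the strand of its gene.
Alb: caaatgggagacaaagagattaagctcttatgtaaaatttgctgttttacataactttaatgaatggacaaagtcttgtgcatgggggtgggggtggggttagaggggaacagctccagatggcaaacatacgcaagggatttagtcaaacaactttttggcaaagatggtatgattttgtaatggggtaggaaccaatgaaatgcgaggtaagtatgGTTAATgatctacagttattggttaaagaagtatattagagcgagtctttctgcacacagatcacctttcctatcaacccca
Fabp1: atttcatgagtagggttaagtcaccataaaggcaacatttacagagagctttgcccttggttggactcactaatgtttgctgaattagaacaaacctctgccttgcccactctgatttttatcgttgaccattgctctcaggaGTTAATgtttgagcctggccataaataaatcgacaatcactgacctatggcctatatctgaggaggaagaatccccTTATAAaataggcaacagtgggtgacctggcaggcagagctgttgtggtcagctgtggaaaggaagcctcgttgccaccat
Mup2: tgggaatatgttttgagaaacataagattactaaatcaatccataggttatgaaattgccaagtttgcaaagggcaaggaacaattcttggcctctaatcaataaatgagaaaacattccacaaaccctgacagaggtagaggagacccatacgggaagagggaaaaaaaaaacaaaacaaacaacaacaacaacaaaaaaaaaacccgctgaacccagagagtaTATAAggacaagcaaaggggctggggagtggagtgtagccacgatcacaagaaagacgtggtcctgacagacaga
Mup19: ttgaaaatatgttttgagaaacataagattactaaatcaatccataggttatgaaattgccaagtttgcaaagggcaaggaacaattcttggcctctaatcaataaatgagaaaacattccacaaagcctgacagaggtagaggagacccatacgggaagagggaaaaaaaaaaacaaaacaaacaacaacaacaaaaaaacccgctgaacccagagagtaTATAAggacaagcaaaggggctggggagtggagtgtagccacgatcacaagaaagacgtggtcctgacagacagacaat
Alb held 1 copy of the HNF1 letters and Fabp1 held 1, while Mup2 and Mup19 held none and 1 copy each of the TATA letters. GTTAAT, on either strand, was present in 5 of the 18 promoters (27.8%), against 4.8% of 12551 promoters of tested genes and 7.1% of all 32851. TATAA was present in 7 of 18 (38.9%), against 14.0% of promoters of tested genes and 24.9% of all. The motifs were counted separately, so a base could serve in both. These matches describe letters in a window and do not show binding. The Mup2 and Mup19 windows were identical at 291 of 294 aligned bases (99.0%), and those of Mup2 and Mup3 at 218 of 246 (88.6%). Mup2 and Mup19 each counted among the 7 promoters with TATAA, so near-identical copies were counted separately.

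Alb encodes serum albumin, the main plasma protein. Its level was 5.21, 7.21 and 5.17 FPKM in busulfan plus L.J. kidneys and 2.89, 5.40 and 4.94 FPKM in L.J. kidneys, against 22.1, 12.2 and 29.7 FPKM in busulfan kidneys and 12.6, 33.1 and 19.2 FPKM in control kidneys. Every L.J. library lay below every library without it. The mean was 5.14 ± 1.38 FPKM with L.J. and 21.5 ± 8.64 FPKM without (SD, n = 6 each), 4.18-fold lower, with a log2 difference of -1.81 ± 0.24 (SE) and an adjusted p of 0.0115 in limma.

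Among called genes the 7 largest falls by log2 difference were in major urinary proteins. Mup2 was at 2.98, 5.82 and 1.97 FPKM in busulfan plus L.J. kidneys and 0.96, 1.71 and 5.10 FPKM in L.J. kidneys, against 16.9, 14.1 and 39.8 FPKM in busulfan kidneys and 26.8, 66.7 and 26.2 FPKM in control kidneys. The groups did not overlap, and the log2 difference was -2.95 ± 0.39 (limma, adjusted p = 0.0115). Mup8 had the smallest p of all genes (limma, adjusted p = 0.00197). It was listed at 0, 0 and 0.47 FPKM in busulfan plus L.J. kidneys and at 0.28, 0.03 and 1.42 FPKM in L.J. kidneys, against 4.77, 5.11 and 4.33 FPKM in busulfan kidneys and 6.19, 14.1 and 5.6 FPKM in control kidneys. Mup8 reached 1 FPKM in a single L.J. library and Mup7 in none, so both were tested because of the side where they were high. Mup19 (log2 difference -2.58), Mup15 (-2.43), Mup1 (-2.23), Mup7 (-2.04), Mup3 (-2.03) and Mup20, also known as darcin (-1.29), fell as well, each with no overlap between sides. Mup genes are near-identical copies in a cluster on chromosome 4, so the split of fragments between them is uncertain. Mup9 and Mup10 were not called, with log2 differences of -1.403 and -1.67, and Mup11 was listed at 0 FPKM in all 12 libraries.

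**Figure D1:**
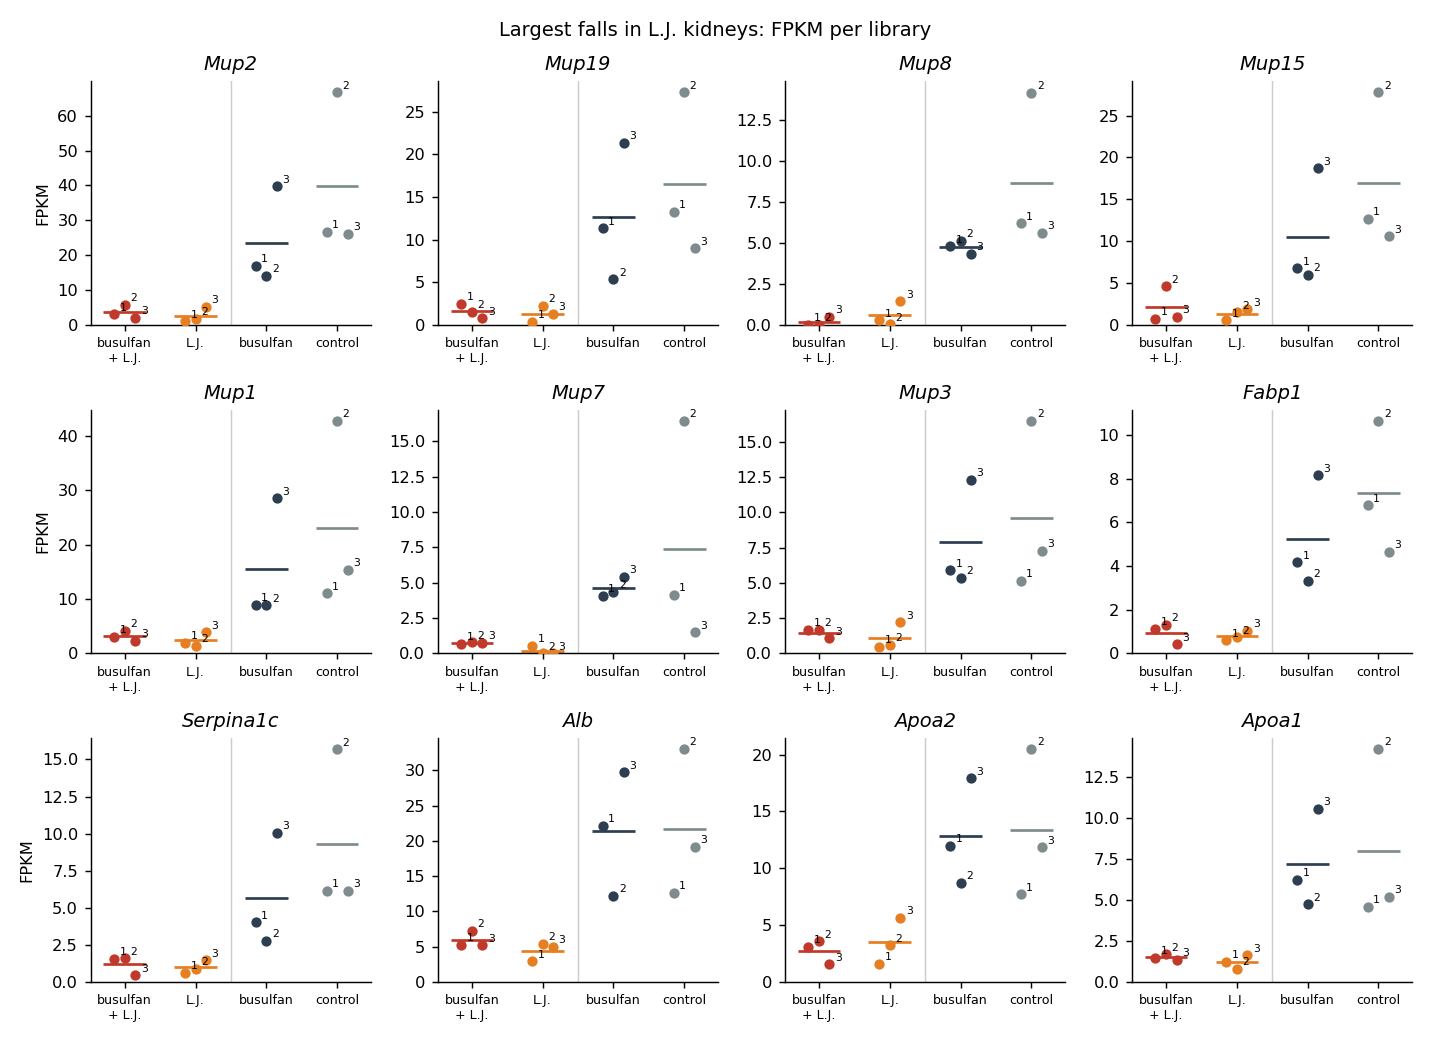
FPKM (vertical axis, from 0) of the 12 called genes with the largest falls by log2 difference, for busulfan plus L.J., L.J., busulfan and control kidneys. Points are libraries numbered by replicate and lines are means of 3. In each panel the 6 L.J. libraries lie below the 6 others, and control library 2 is the highest point in all panels.

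Of the called genes, 3 encode carriers of lipids. Fabp1, the liver fatty acid binding protein, was at 1.12, 1.31 and 0.41 FPKM in busulfan plus L.J. kidneys and 0.60, 0.74 and 1.02 FPKM in L.J. kidneys, against 4.17, 3.33 and 8.16 FPKM in busulfan kidneys and 6.78, 10.7 and 4.66 FPKM in control kidneys. The sides were separate by a wide margin, and the mean was 7.26-fold lower (log2 difference -1.90 ± 0.22, limma adjusted p = 0.00947). Apoa1, the main protein of high density lipoprotein, was at 1.45, 1.67 and 1.32 FPKM in busulfan plus L.J. kidneys and 1.22, 0.78 and 1.60 FPKM in L.J. kidneys, against 6.21, 4.72 and 10.5 FPKM in busulfan kidneys and 4.58, 14.2 and 5.16 FPKM in control kidneys. Its L.J. values were at most 1.67 FPKM and its log2 difference was -1.77 ± 0.24 (limma, adjusted p = 0.0115). Apoa2, the other main protein of that particle, was 4.21-fold lower, at 1.55 to 5.65 FPKM (median 3.16) with L.J. and 7.71 to 20.5 FPKM (median 11.9) without. Apoc3, an inhibitor of lipoprotein lipase, was not called (log2 difference -0.64, limma adjusted p = 0.245).

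Other called genes encode plasma proteins that bind hormones, minerals or heme. Ttr, which carries thyroid hormone and the retinol complex, had 0.46 to 1.17 FPKM (median 0.815) with L.J. and 2.68 to 7.43 FPKM (median 3.33) without. Ahsg, or fetuin-A, an inhibitor of mineral deposition, had 0.26 to 0.88 FPKM (median 0.685) with L.J. and 1.67 to 6.99 FPKM (median 3.89) without. Hpx, or hemopexin, which binds heme, had 0.13 to 0.37 FPKM (median 0.170) with L.J. and 0.54 to 2.58 FPKM (median 1.30) without. None of these ranges overlapped. With L.J. all of these medians were under 1 FPKM, and the genes were tested because of the side where they were high. Their log2 differences were -1.49, -1.57 and -0.98, with limma adjusted p of 0.0160, 0.0125 and 0.0412. Trf, transferrin, was not called and its ranges overlapped (5.27 to 25.0 FPKM with L.J. and 10.6 to 20.4 FPKM without, limma adjusted p = 0.455).

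Some called genes act in coagulation or inhibit proteases. Fgb, the fibrinogen beta chain, was at 0.31, 0.60 and 0.15 FPKM in busulfan plus L.J. kidneys and 0.12, 0.12 and 0.36 FPKM in L.J. kidneys, against 3.33, 1.28 and 5.0 FPKM in busulfan kidneys and 2.02, 4.0 and 1.83 FPKM in control kidneys. It showed a 10.5-fold lower mean, and nearly the same log2 difference with busulfan (-1.54) as without (-1.55). Its L.J. values were all under 1 FPKM, so Fgb was tested because of the side where it was high. The gamma chain Fgg fell by 1.18 on the log2 scale, while the alpha chain Fga, at 3.53 to 5.59 FPKM with L.J. and 5.81 to 9.94 FPKM without, missed the threshold (-0.66, limma adjusted p = 0.0666) although its ranges did not overlap. Among the serpins, which inhibit serine proteases, Serpina3k fell by 1.67 and Serpina1c by 1.89 on the log2 scale. Serpina1a (-0.97) and Serpina1b (-0.74) were not called. Ambp, precursor of an inhibitor of trypsin-like proteases and of alpha-1-microglobulin, fell by 0.95, and Kng1, the kininogen gene, by 0.62.

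Serpine2 and Pnrc1 are the called genes that are not typical of hepatocytes. Pnrc1, a nuclear receptor coactivator, was at 34.0, 24.9 and 24.9 FPKM in busulfan plus L.J. kidneys and 37.8, 26.4 and 34.7 FPKM in L.J. kidneys, against 45.4, 53.5 and 56.5 FPKM in busulfan kidneys and 47.9, 43.5 and 45.0 FPKM in control kidneys. It was the most abundant gene called and its sides did not overlap (log2 difference -0.67 ± 0.12, limma adjusted p = 0.0480). The call held in 1 of 12 fits that each left out a library. Serpine2, or protease nexin-1, which inhibits thrombin and urokinase, was at 5.43, 3.72 and 4.87 FPKM in busulfan plus L.J. kidneys and 3.0, 2.34 and 2.82 FPKM in L.J. kidneys, against 7.24, 10.2 and 6.43 FPKM in busulfan kidneys and 5.88, 5.85 and 4.47 FPKM in control kidneys. It was the called gene whose sides overlapped, since 2 busulfan plus L.J. libraries were above control library 3 (log2 difference -0.71 ± 0.12, limma adjusted p = 0.0326), and its call held in 3 of 12 such fits.

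All 23 genes were lower in both comparisons, which share no library: busulfan plus L.J. against busulfan, and L.J. alone against control. In all 23 the 3 L.J. libraries lay below the matching 3 in both, which held for 170 of all tested genes (1.38%). In 22 of the 23 all 6 libraries lay below the other 6, which held for 77 tested genes (0.627%). The 23 were chosen by their p over these same libraries, so these counts describe them and are no independent support. For Mup2 the log2 difference was -2.37 with busulfan and -3.54 without, for Fabp1 -1.63 and -2.17, and for Pnrc1 -0.88 and -0.47. A test of the difference between both settings called none of the 23. Within busulfan 398 genes were called (3.24%), 253 of them lower (2.06%), and within the libraries without busulfan 0 (0%, with 337 or 2.74% at an unadjusted p under 0.05).

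**Figure D2:**
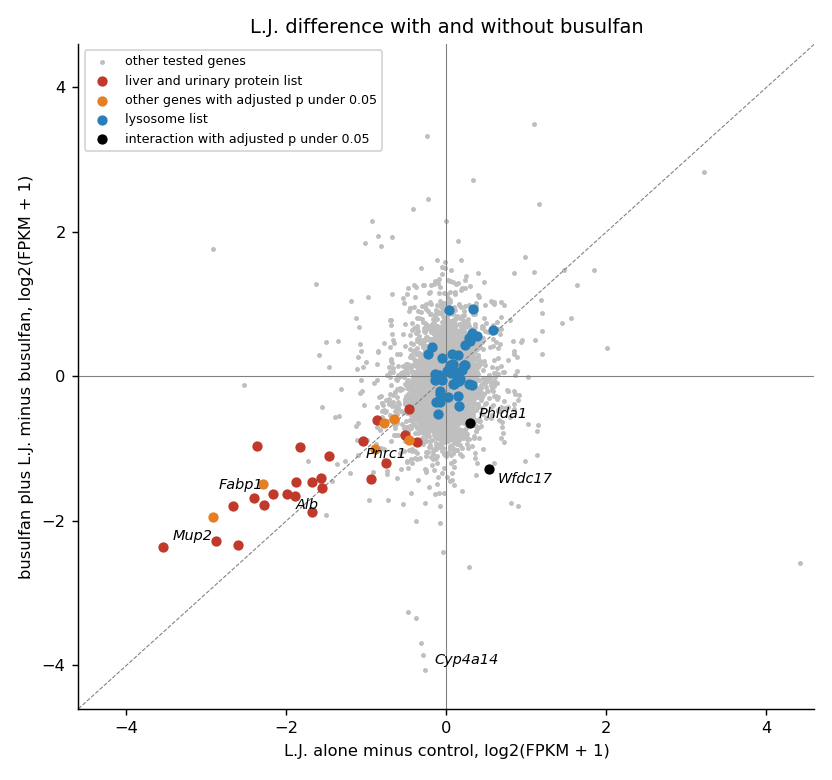
Log2(FPKM + 1) difference of busulfan plus L.J. minus busulfan (vertical axis) against that of L.J. alone minus control (horizontal axis), 1 point per tested gene, with the diagonal dashed. Liver and urinary protein genes lie in the lower left, from Mup2 at -2.37 (vertical) and -3.54 (horizontal) inward, while Cyp4a14 is at -4.06 (vertical) and -0.27 (horizontal).

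Of 26 liver and urinary protein genes in the table, 24 were tested and all 24 had a log2 difference below 0, against 8044 of 12281 tested genes (65.5%). Their median was -1.62, against -0.06 for all genes, with -1.46 with busulfan and -1.76 without. Summed over the list, the level was 77.5, 65.5 and 36.7 FPKM in busulfan plus L.J. kidneys and 36.0, 52.0 and 62.3 FPKM in L.J. kidneys, against 168.9, 138.9 and 276.1 FPKM in busulfan kidneys and 157.6, 387.5 and 167.9 FPKM in control kidneys. The lowest sum without L.J. was above the highest with it. Only 12 of the 24 would have passed the filter on the L.J. libraries alone, so the other 12 were tested because of the side where they were high. With no filter, 18448 genes were fitted and 13 list members were called.

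The further hepatocyte list was lower on the same side, and what part of either list's level comes from hepatocytes was not tested. Its 26 members in the table summed to 36.4 to 50.2 FPKM with L.J. and 50.4 to 145.1 FPKM without. Of its 14 tested members 4 were called lower, against 0.187% of all tested genes, and the median was -0.79. Log2 differences were below 0 for 9 of the 14 and above 0 for 5, against 65.5% and 34.5% of all tested genes. The 12 untested members all had lower means with L.J., but the same share over all untested genes was not counted. Itih1 (log2 difference 0.34) and Hsd17b13 (0.82) went the other way at an unadjusted p under 0.05.

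The highest values without L.J. were mostly in a pair of libraries. Control library 2 was the highest of the 3 controls in 21 of the 23 genes, and busulfan library 3 was the highest of the 3 busulfan libraries in 19. Among L.J. libraries, L.J. library 1 was the lowest of 6 in 11 genes. Scaled to Alb in the same library, Apoa2 had a median of 0.57 with L.J. and 0.61 without, and Fgg 0.11 with L.J. and 0.12 without. Mup2 had 0.48 (0.32 to 1.03) with L.J. and 1.35 (0.77 to 2.13) without, and Fgb 0.05 (0.02 to 0.08) with L.J. and 0.14 (0.10 to 0.17) without, so Fgb was lower relative to Alb in every L.J. library.

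No gene was called higher. The 5 smallest p in that direction belonged to Lipa, Tmppe, Kl, Igf2r and Hist1h1c. Lipa, the lysosomal acid lipase, was at 104.1, 110.4 and 113.0 FPKM in busulfan plus L.J. kidneys and 114.5, 113.2 and 107.9 FPKM in L.J. kidneys, against 72.3, 72.7 and 88.0 FPKM in busulfan kidneys and 83.0, 97.5 and 92.5 FPKM in control kidneys. The sides did not overlap, and the log2 difference of 0.39 ± 0.07 just missed the threshold (limma, adjusted p = 0.0585). It passed without busulfan library 3 (limma, adjusted p = 0.0479). Kl, which encodes Klotho, the renal co-receptor for FGF23, was at 205.5, 252.9 and 234.6 FPKM in busulfan plus L.J. kidneys and 238.6, 228.2 and 248.5 FPKM in L.J. kidneys, against 194.2, 171.1 and 178.2 FPKM in busulfan kidneys and 188.5, 178.6 and 203.4 FPKM in control kidneys. Its sides did not overlap, with a log2 difference of 0.35 with busulfan, 0.33 without and 0.34 over all (limma, adjusted p = 0.111).

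Tmppe, a transmembrane protein with a metallophosphoesterase domain, had 8.39 to 11.5 FPKM (median 10.2) with L.J. and 5.29 to 7.73 FPKM (median 7.19) without (limma, adjusted p = 0.0770). Its annotated span on chromosome 9 lies within that of Glb1, lysosomal beta-galactosidase, so fragments of both could be confused. Glb1 had 79.1 to 123.8 FPKM (median 102.1) with L.J. and 36.9 to 81.5 FPKM (median 72.0) without. Igf2r, which delivers enzymes to lysosomes, had 14.5 to 19.6 FPKM with L.J. and 8.93 to 14.8 FPKM without, and overlapped in a single L.J. library. Hist1h1c, a linker histone, had 28.3 to 38.7 FPKM with L.J. and 19.9 to 26.5 FPKM without. In a lysosome list assembled after these values were seen, 8 of 44 tested members were higher and 1 lower at an unadjusted p under 0.05, against 3.43% and 9.47% of all tested genes. Among them 0 were called, and the median was 0.07, and 0.04 without busulfan libraries 1 and 2. Neu1, lysosomal sialidase, was a member whose sides did not overlap (118.5 to 171.4 FPKM with L.J. and 87.6 to 113.6 FPKM without, limma adjusted p = 0.169).

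**Figure D3:**
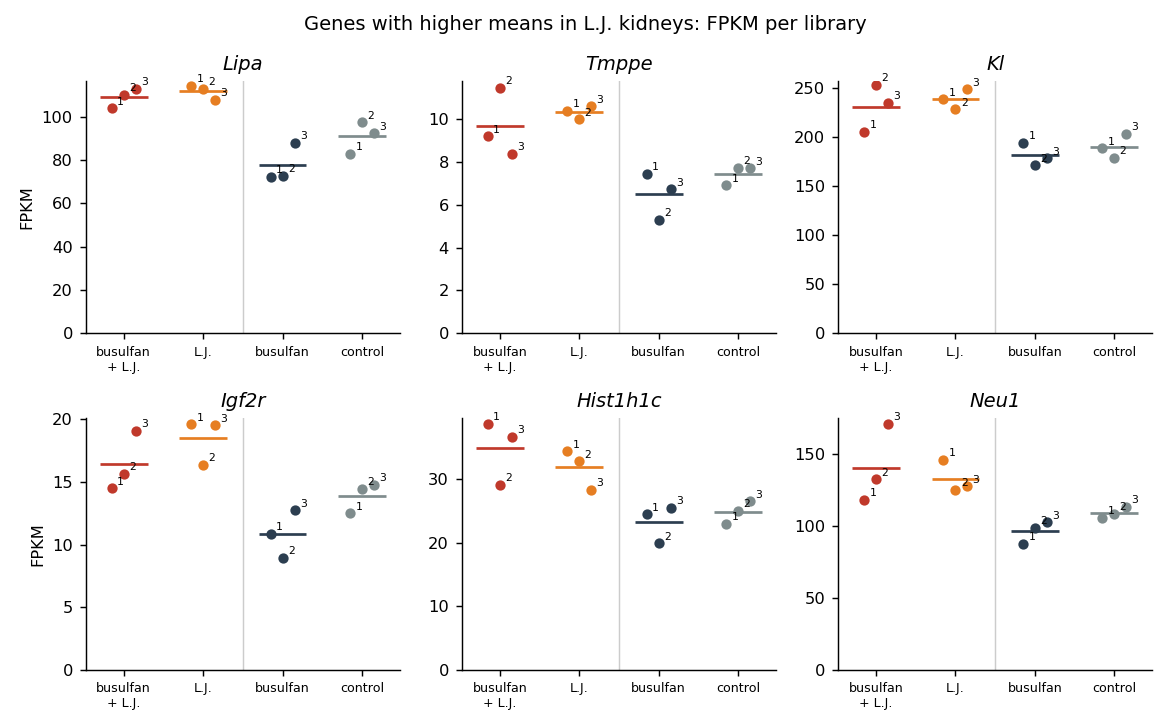
FPKM (vertical axis, from 0) per library of Lipa, Tmppe, Kl, Igf2r, Hist1h1c and Neu1 in busulfan plus L.J., L.J., busulfan and control kidneys. Points are libraries numbered by replicate and lines are means of 3. L.J. libraries sit above the others in all panels but that of Igf2r, where the sides touch.

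Circadian clock genes varied between libraries within groups. Of 20 tested members 0 were called. Against 3.43% and 9.47% of all tested genes, 1 member was higher and 3 were lower at an unadjusted p under 0.05. The median was -0.02, and 0.15 without busulfan libraries 1 and 2. Cry1, a repressor of the clock, was at 1.82, 0.42 and 0.98 FPKM in busulfan plus L.J. kidneys and 1.24, 0.97 and 1.06 FPKM in L.J. kidneys, against 1.84, 3.21 and 5.36 FPKM in busulfan kidneys and 4.37, 2.68 and 3.53 FPKM in control kidneys. Its sides were separate by a narrow margin, with a log2 difference of -1.09 (limma, adjusted p = 0.0575). It passed the threshold when busulfan plus L.J. library 1 or busulfan library 1 was left out, with adjusted p of 0.0381 and 0.0321. Bhlhe40, a repressor of clock output, had 15.97 to 29.8 FPKM (median 23.4) with L.J. and 22.3 to 53.2 FPKM (median 28.9) without (-0.48, limma adjusted p = 0.347). Dbp, an output of the clock with a steep daily rhythm, was at 7.62, 41.9 and 40.5 FPKM in busulfan plus L.J. kidneys and 3.86, 37.5 and 7.31 FPKM in L.J. kidneys, against 45.7, 35.4 and 2.93 FPKM in busulfan kidneys and 2.05, 2.0 and 1.65 FPKM in control kidneys. Libraries of the same group differed by over 5-fold in 3 of the 4 groups. Arntl, an activator of the clock with the opposite phase, was low where Dbp was high, at 2.41 to 10.1 FPKM with L.J. and 3.49 to 15.7 FPKM without. The labels do not give the time of day of sampling, and its part in the values of Cry1 was not tested.

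**Figure D4:**
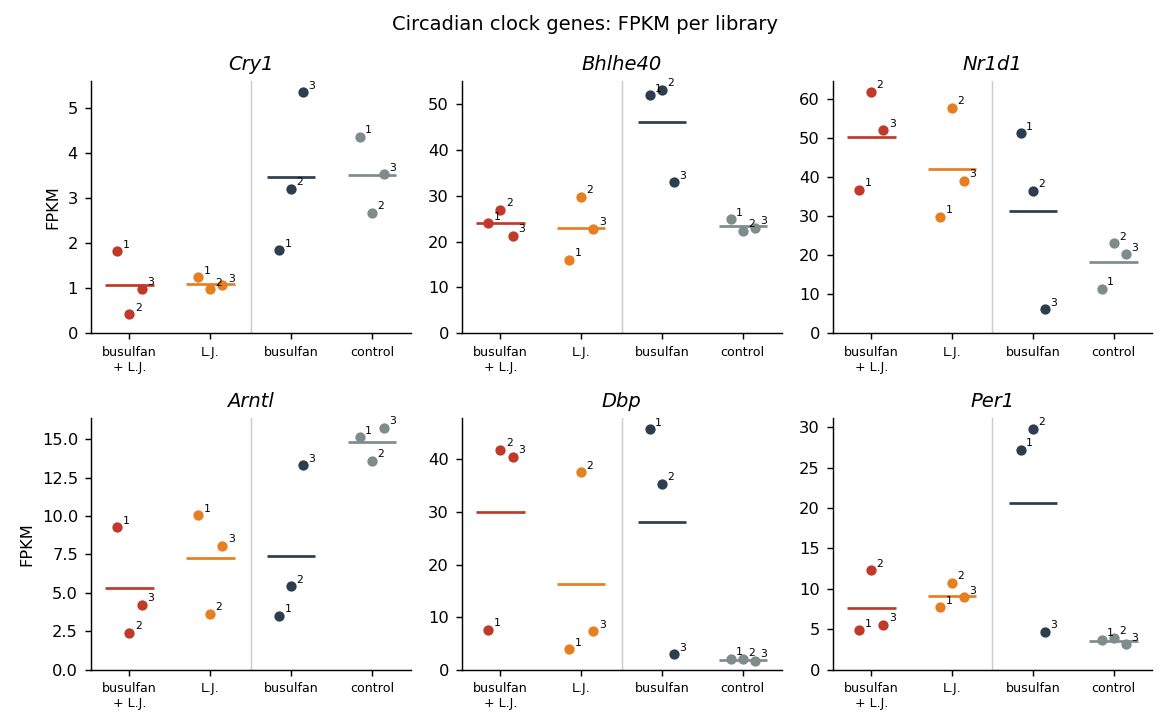
FPKM (vertical axis, from 0) per library of Cry1, Bhlhe40, Nr1d1, Arntl, Dbp and Per1 in busulfan plus L.J., L.J., busulfan and control kidneys. Points are libraries numbered by replicate and lines are means of 3. Cry1 is lower in every L.J. library than in the others, while Dbp spans 1.65 to 45.7 FPKM with both high and low libraries in 3 groups.

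Among kidney cell types, no marker was called. Log2 differences were below 0 for all 12 tested genes of the thick ascending limb (median -0.43, and -0.24 without busulfan libraries 1 and 2), all 12 of the principal cell (-0.38) and all 15 of the intercalated cell (-0.41), against 65.5% of all tested genes. In the same order, 6, 9 and 8 of their genes were lower at an unadjusted p under 0.05, against 9.47% of all tested genes. Umod, or uromodulin, had 486 to 834 FPKM with L.J. and 652 to 1315 FPKM without, and did not pass (limma, adjusted p = 0.347). Medians of the collecting duct lists were closer to 0 without the busulfan libraries that stand apart. The intercalated cell median was -0.70 with busulfan, -0.08 without and -0.06 when busulfan libraries 1 and 2 were left out. The principal cell median was -0.57, -0.23 and -0.22 in the same settings. For podocytes 11 of 12 tested genes were below 0 (median -0.34, and -0.14 without these libraries). Proximal tubule transporters had a median of 0.16, and of 0.09 without these libraries, with 24 of 28 above 0 (34.5% of all tested genes). Against 3.43% and 9.47% of all tested genes, 7 of these transporters were higher and 1 lower at an unadjusted p under 0.05. Slc34a3, a phosphate transporter, had the smallest p of them, at 16.8 to 31.3 FPKM with L.J. and 11.2 to 20.0 FPKM without (limma, adjusted p = 0.239).

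**Figure D5:**
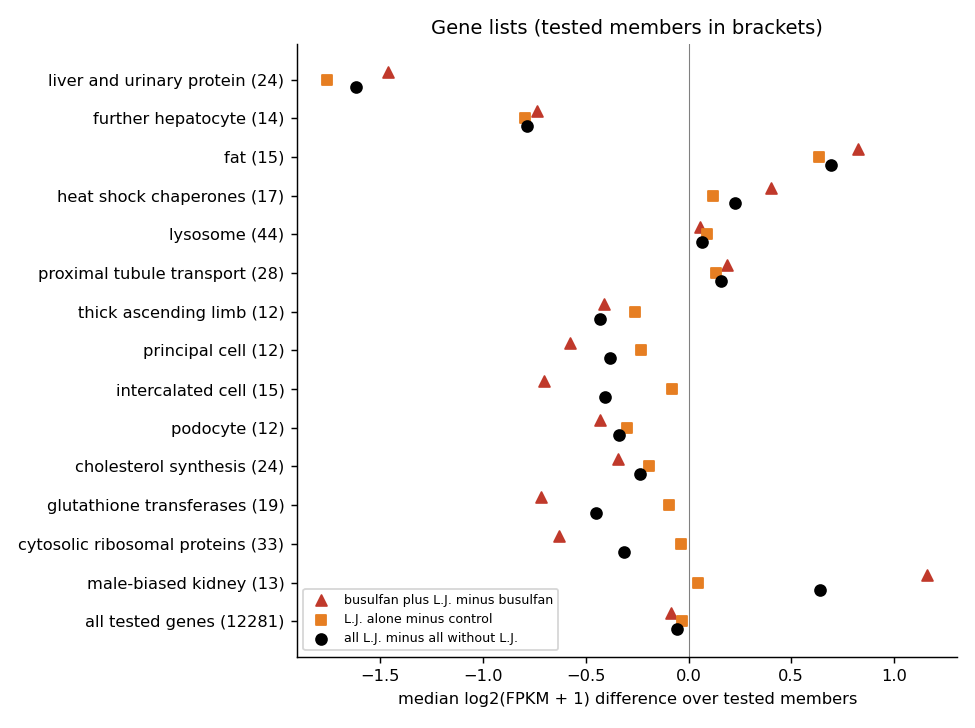
Median log2(FPKM + 1) difference over the tested members of 14 gene lists and of all tested genes (horizontal axis), for busulfan plus L.J. minus busulfan, L.J. alone minus control, and all L.J. minus all without L.J. The liver and urinary protein list is at -1.46, -1.76 and -1.62, while ribosomal, glutathione transferase and male-biased lists lie near 0 without busulfan.

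Several lists had medians farther from 0 with busulfan, the comparison that includes busulfan libraries 1 and 2, than without. Over all L.J. kidneys 0 of their members were called. Within busulfan 11 of 33 cytosolic ribosomal, 6 of 19 glutathione transferase, 1 of 17 heat shock and 1 of 13 male-biased members were called. The share called within busulfan over all tested genes was 3.24%. Cytosolic ribosomal protein genes had a median of -0.63 with busulfan and -0.04 without, with 33 of 33 below 0 over all. Over all L.J. kidneys the median was -0.31, and -0.10 without busulfan libraries 1 and 2. Glutathione transferases, which conjugate busulfan among other substrates, had -0.72 with busulfan and -0.09 without, and -0.45 over all L.J. kidneys, or -0.17 without busulfan libraries 1 and 2. Heat shock chaperones had a median of 0.23, but -0.01 without busulfan libraries 1 and 2. At an unadjusted p under 0.05, 7 of 17 were higher, against 3.43% of all tested genes. Hspa8 had 1566 to 1924 FPKM with L.J. and 1039 to 1509.8 FPKM without. Genes higher in male than in female kidneys had a median of 0.64, with 1.16 with busulfan and 0.05 without, and of -4.21e-05 when these libraries were left out. Kap, the androgen-regulated kidney protein, had 34873 to 45289.8 FPKM with L.J. and 5031 to 50482 FPKM without, since busulfan libraries 1 and 2 had 10398 and 5031 FPKM (limma, adjusted p = 0.510). Cyp4a14, a fatty acid hydroxylase, had 121.4 and 151.0 FPKM in these libraries and at most 3.98 FPKM in the other 10 (limma, adjusted p = 0.347).

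Over all L.J. kidneys, no member of the fat, neutrophil or tubular injury lists was called. The 15 tested fat genes were all above 0 (median 0.69, and 0.40 without busulfan libraries 1 and 2) and summed to 287 to 1087 FPKM with L.J. and 278 to 503 FPKM without. The brown fat gene Ucp1 was at 8.47, 13.0 and 0.97 FPKM in busulfan plus L.J. kidneys and 0.08, 9.83 and 4.74 FPKM in L.J. kidneys, against 0.04, 0 and 0.76 FPKM in busulfan kidneys and 0, 0.34 and 3.55 FPKM in control kidneys. The part of fat in other results was not tested. Neutrophil markers summed to 7.38 to 10.7 FPKM with L.J. and 12.03 to 123.1 FPKM without. The top of that range was busulfan libraries 1 and 2, where S100a9 was at 32.6 and 51.9 FPKM. Busulfan library 3, at 15.2 FPKM, and the controls, at 12.03 to 13.5 FPKM, also lay above every L.J. library. At an unadjusted p under 0.05, 4 of 6 tested markers were lower and 0 higher, against 9.47% and 3.43% of all tested genes. Within busulfan 2 of the 6 were called, against 3.24% of all tested genes. Tubular injury genes had a median of -0.11. Havcr1, or KIM-1, had 1.97 to 3.38 FPKM with L.J. and 1.29 to 2.60 FPKM without (limma, adjusted p = 0.580), and Lcn2 0.33 to 6.69 FPKM with L.J. and 0.97 to 10.7 FPKM without (limma, adjusted p = 0.539). Cholesterol synthesis genes had a median of -0.24, and of -0.11 without busulfan libraries 1 and 2, with 9 of 24 lower at an unadjusted p under 0.05, against 9.47% of all tested genes. The list of PPARA targets held a called gene through Fabp1, and the median of each list not described here lay between -0.38 (genes higher in female than in male kidneys) and 0.19 (fatty acid synthesis).

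The difference between both settings, tested as an interaction, was called in 2 genes (0.0163%). Wfdc17, a small secreted protein of activated macrophages, was at 0.34, 0.92 and 0.58 FPKM in busulfan plus L.J. kidneys and 1.41, 1.4 and 1.22 FPKM in L.J. kidneys, against 2.76, 3.03 and 2.80 FPKM in busulfan kidneys and 0.81, 0.47 and 0.61 FPKM in control kidneys. It was lower with L.J. under busulfan (-1.27) and higher without (0.53; limma, adjusted p = 0.0252). Phlda1 was at 7.10, 7.07 and 6.47 FPKM in busulfan plus L.J. kidneys and 8.31, 8.98 and 9.26 FPKM in L.J. kidneys, against 10.4, 12.1 and 11.7 FPKM in busulfan kidneys and 7.04, 6.97 and 7.10 FPKM in control kidneys. Its log2 difference was -0.65 with busulfan and 0.29 without (limma, adjusted p = 0.0467). The count rested on single libraries. It was 1489 without busulfan library 3, 1 without busulfan plus L.J. library 1, 2 without busulfan plus L.J. library 2 and 0 without any other single library. It was also 0 after quantile normalization.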

How the data were processed

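RNA from frozen kidneys, 12 libraries in all, was extracted with Trizol and a column kit and made into Illumina libraries, per the labels' protocols. The authors deposited 1 table of FPKM values, 1 column per library, per the file headers. Per the submitters' processing notes, Bowtie 0.12.2 and the mm10 build were used; counting tool, annotation and strandedness: not given in the sources used here. Gene identifiers were used to restore 26 symbols that had turned into dates, and 1 repeated symbol was dropped. Groups came from the description labels and replicate numbers from the titles.

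The 12281 genes reaching 1 FPKM in 3 or more libraries were transformed to log2(FPKM + 1) and fitted with limma 3.58.1 in R 4.3.3 (trend option) on L.J. and busulfan. Tests were two-sided, with Benjamini-Hochberg adjustment over all tested genes and a threshold of 0.05. A fit of 4 group means gave the differences with and without busulfan and their interaction. The fit was tested on simulated data.

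The comparison and the 41 gene lists were chosen with earlier results of these data known, and the lysosome and further hepatocyte lists were added after these values were seen. Genes named were all called genes, the 12 largest falls in detail, the 5 smallest p in the direction without calls, up to 4 members per list and a few chosen markers. The ratios to Alb, and Fga, Trf, Apoc3, Nr1d1, Arntl, Neu1, Glb1, Itih1, Hsd17b13 and the uncalled Mup and serpin genes were named after their values were seen. Coordinates and promoters came from RefSeq (GRCm38.p6). Alternatives were another pseudocount, no filter, quantile or median scaling, library weights, a replicate block, no covariate, 4 group means, a correction for length and GC content, and leaving out libraries. Leaving out busulfan libraries 1 and 2 together was chosen after seeing the data.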

Additional observations from a re-analysis of the deposited data

Results flagged for a closer look

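Within the 6 libraries of a side, the gap between an extreme library and the next, divided by the range, was compared with Dixon's critical value for the genes described. It was exceeded in 6 of 200 gene and side combinations; chance alone flags about 1 in 20. Control library 2 was far above the other 5 without L.J. for Mup8 (ratio 0.713) and Mup20 (ratio 0.688). Control library 3 was far above them for Ucp1 (0.627). Busulfan library 2 was far below them for Tmppe (0.629), and busulfan library 3 for Il1b (0.649). L.J. library 1 was far below the other 5 with L.J. for Hsd3b4 (0.835), a steroid dehydrogenase of the kidney, at 10.1 FPKM against 26.2 to 31.5 FPKM.

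The L.J. difference itself differed between kidneys with and without busulfan for Wfdc17 (limma interaction, adjusted p = 0.0252) and Phlda1 (limma interaction, adjusted p = 0.0467).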

How the results depend on the processing

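In the pooled comparison 23 genes were lower, 14 after quantile normalization, 11 to 21 when a library was left out and 16 to 32 under the other alternatives. The count of 17 within the liver and urinary protein list was 12 to 17 under alternatives that kept all libraries, 12 without busulfan libraries 1 and 2, and 9 to 16 when a library was left out. The count of genes higher was 0, with 0 to 1 when a library was left out, 3 with library weights, 5 with 4 group means, 2 with the length and GC correction, and 1 with the replicate block and library weights. The interaction count of 2 became 0 with a pseudocount of 0.1, quantile normalization, library median scaling, the length and GC correction or the replicate block. It was 1 with no filter, 4145 with library weights (2734 with the replicate block as well), 91 without busulfan libraries 1 and 2, and 0 to 1489 when a library was left out. The estimation of library weights did not fully converge, so counts under them are doubtful. The cause was not tested. No named gene reversed its direction, among 2392 combinations of gene and alternative, of which 144 lost and 19 gained a call.

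Replicate numbers did not pair the libraries. The 18 correlations of deviations between libraries with the same number ran from -0.239 to 0.0813, with a median of -0.0498. With the replicate block 16 genes were lower and 0 higher.

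FPKM values rounded to 2 decimals keep no absolute depth, so intervals from counting could not be given. Of the 23 genes, 13 would have passed the filter on the L.J. libraries alone.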
